A study of Mus musculus with 4 samples.

Results

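The comparison concerned histone H3 trimethylated on lysine 4 (H3K4me3) in untreated mouse macrophages that carried 1 working copy of Wbp7 (Wbp7+/-) or lacked both (Wbp7-/-). Its members were all peaks of the 2 untreated peak lists, 17316 in Wbp7+/- and 14599 in Wbp7-/- cells, together 31915 of the 64314 peaks of the 4 lists of the series. A peak was called matched when it overlapped a peak of the other genotype by 1 bp or more, and unmatched otherwise.

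The cells were primary macrophages, grown from bone marrow and taken on day 7 of differentiation, from mice with a share of 6% 129/Ola and 94% C57BL/6 in their background. Both genotypes were left without treatment, and the mark was measured by chromatin immunoprecipitation and sequencing (ChIP-seq). The 2 further lists came from the same genotypes after lipopolysaccharide (LPS, 10 ug/ml for 4 h) and were used as separate libraries. The control cells had also lost 1 copy of Wbp7, so the comparison was between 1 copy and none and held no wild-type cells. The sources used here do not say how the allele was made or how many animals gave each library. Each group held 1 library. A difference between the genotypes and a difference between 2 libraries therefore cannot be told apart, and no test between genotypes was run. The depth behind each list is unknown. Markers of macrophages or of other cells could not be read from positions without an mm9 gene annotation and were not analysed here, nor was the Wbp7 locus itself.

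Wbp7, also named Kmt2b and given as MLL2 or MLL4 in the sample labels, encodes a histone methyltransferase of the MLL family. These enzymes work in complexes with shared core subunits and add methyl groups to lysine 4 of histone H3. Trimethylation at this lysine marks the start sites of active genes and is typically found at promoters rich in CpG dinucleotides. Several methyltransferases place the mark, so loss of one enzyme can leave most promoters with it. The title of the series links Wbp7 in macrophages to the synthesis of glycosylphosphatidylinositol (GPI) anchors, the lipid tails that hold some receptors, CD14 of the LPS response among them, on the cell surface.

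Most H3K4me3 regions were shared. The lists had 29.7 Mb of covered sequence in common, against 4.809 Mb in Wbp7+/- peaks alone and 3.768 Mb in Wbp7-/- peaks alone. The sources of the unshared bases differed. In Wbp7+/- cells, 2.934 Mb lay in peaks with no Wbp7-/- counterpart and 1.875 Mb at the sides of matched peaks. In Wbp7-/- cells, 0.981 Mb lay in unmatched peaks and 2.786 Mb at the sides of matched ones. The Wbp7-/- list thus had fewer peaks, and the ones it shared reached further out.

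Unmatched peaks numbered 3410 in Wbp7+/- cells, a background rate of 19.7% of the list, and 1012 in Wbp7-/- cells, 6.93% of the list. These peaks were narrow and low in score. The score is the authors' value for each peak as the peak caller MACS wrote it. It rises with depth and enrichment and piles up at a ceiling, so that 9695 Wbp7+/- and 9047 Wbp7-/- peaks stood at 3100 or above. The unmatched Wbp7+/- peaks had a median width of 766 bp (quartiles 569 and 1042) against 2047 bp for matched ones. Their median score was 135.4. Unmatched Wbp7-/- peaks had a median width of 857.5 bp and a median score of 89.96. With scores under 500 dropped from both lists, 1554 Wbp7+/- and 361 Wbp7-/- peaks were unmatched. Of these, 643 and 56 had no counterpart in the full lists. The others overlapped a peak that the cut removed from the other list. With both lists cut to their 14599 highest-scoring peaks the numbers were 1694 and 1756. Matching is mostly one-to-one, so lists of equal length give nearly equal numbers by construction.

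The unmatched share also fell with width. No peak of 5000 bp or more was unmatched in either direction, among 557 in Wbp7+/- and 566 in Wbp7-/- cells, which allows shares of up to 0.539% and 0.53%. Of Wbp7+/- peaks from 3000 to under 5000 bp, 8 of 2490 were unmatched (0.321%, 95% Wilson interval 0.163 to 0.633, over peaks and for counting error only). From 1500 to under 2000 bp the share was 6.61% (5.75 to 7.58), and under 500 bp it was 67.5% (64.2 to 70.5). The same widths gave 0.0344%, 3.36% and 29.7% for Wbp7-/- peaks without a Wbp7+/- peak.

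The 2 directions also differed among peaks of like width and score. From 1000 to under 1500 bp and at a score of 500 to under 3100, 295 of 1106 Wbp7+/- peaks (26.7%, 24.2 to 29.4) were unmatched. In that cell of the Wbp7-/- list, 20 of 638 were (3.13%, 2.04 to 4.79). From 2000 to under 3000 bp and at the same scores, 26 of 285 Wbp7+/- and 9 of 369 Wbp7-/- peaks were unmatched, 9.12% (6.3 to 13.0) and 2.44% (1.29 to 4.57). The depths are unknown, so a score class need not hold peaks of equal enrichment in both lists, and the part of depth in these shares was not tested.

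**Figure D1:**
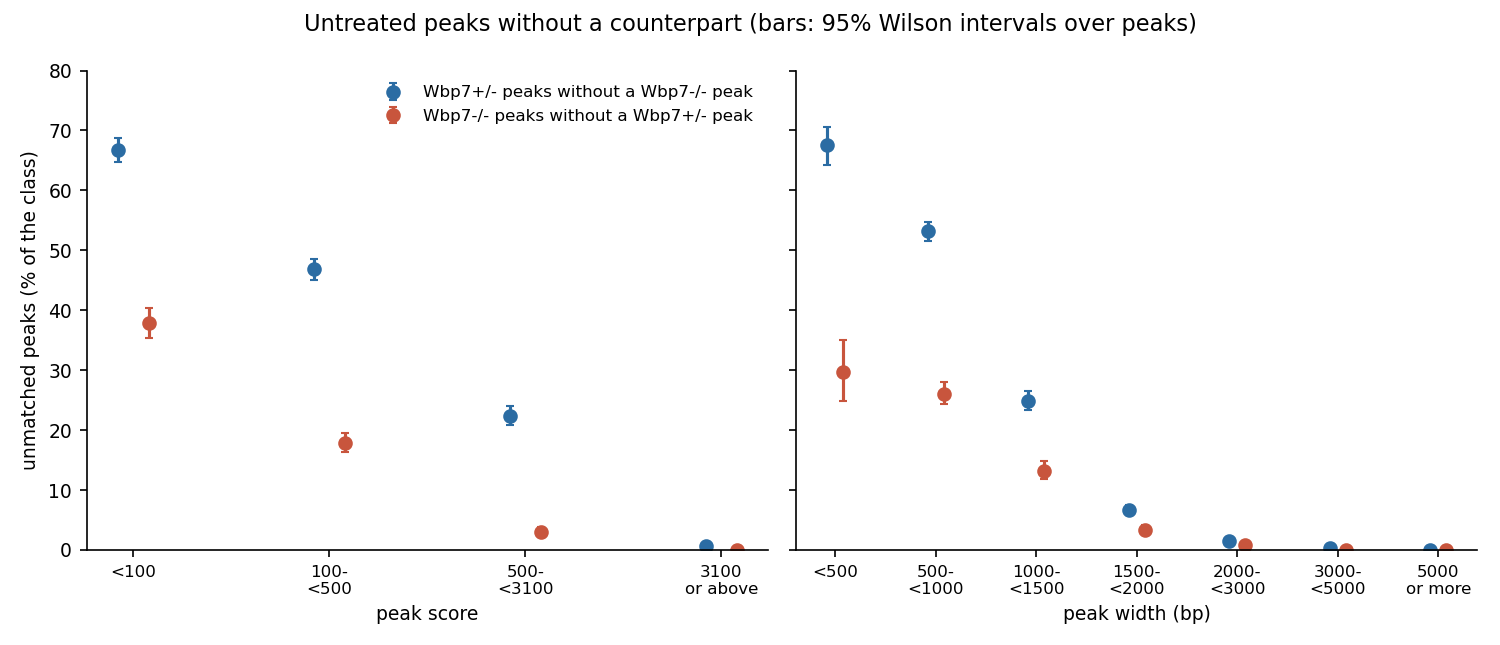
Share of untreated peaks without a counterpart in the other genotype (y axis, percent of the class) by peak score (left) and peak width in bp (right), for Wbp7+/- peaks (blue) and Wbp7-/- peaks (red), with 95% Wilson intervals over peaks. The share falls from 67.5% to 0 with width in Wbp7+/- cells, and blue points lie above red ones in every class in which any peak is unmatched.

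At the ceiling, 70 of 9695 Wbp7+/- peaks were unmatched and 0 of 9047 Wbp7-/- peaks. The threshold values on each side were close. The highest scores under the ceiling were 3096.78 in Wbp7+/- and 3099.38 in Wbp7-/- cells, and of the peaks scoring from 3000 to under 3100, 6 of 58 and 0 of 42 were unmatched. The smallest overlap counted as a match was 2 bp, and the smallest gap of an unmatched peak was 4 bp for a Wbp7+/- peak and 8 bp for a Wbp7-/- peak.

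The 70 strong Wbp7+/- peaks without a Wbp7-/- peak were 1128 to 4056 bp wide, with a median of 1850.5 bp against 2453 bp for matched peaks at the ceiling. They stood apart from other regions. Their median distance to the nearest Wbp7-/- peak was 54.1 kb (quartiles 16.2 and 117), and 36 of the 70 (51.4%) were more than 50 kb away from one. For comparison, matched Wbp7+/- peaks at the ceiling lay a median of 22.4 kb from the nearest other matched peak, and 27.1% of them more than 50 kb. Within 1 kb of a Wbp7-/- peak lay 1 of the 70. Most thus lay well apart from any region called in Wbp7-/- cells. The weakest unmatched peaks, those scoring under 100, lay closer, at a median of 17.4 kb, and 199 of these 1324 were within 1 kb of a Wbp7-/- peak. They too lay further out than matched peaks of their class. Their median distance to the nearest matched Wbp7+/- peak was 18.4 kb. For matched Wbp7+/- peaks scoring under 100 it was 3.46 kb to the nearest other one, with 266 of 659 within 1 kb. The matching rule itself bears on the distances of matched peaks. Over all scores, 1319 Wbp7+/- peaks were matched by a Wbp7-/- peak that spanned further Wbp7+/- peaks, which places them close together. Of the 659, 457 were in one-to-one pairs. Matched peaks are thus not an even baseline, and the part of the rule in these differences was not tested.

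The most isolated of the 20 widest lay on chromosome 4 from 28739501 to 28741702 (mm9, counted from 1, as for all positions here). Its 2202 bp at the ceiling were 2470 kb from the nearest Wbp7-/- peak. On chromosome 9, the peak from 42912748 to 42914903 (2156 bp) was 131 kb from one, and on chromosome 3 that from 122431782 to 122434087 (2306 bp) was 108 kb from one. On chromosome 12, the peak from 53703288 to 53706606 (3319 bp) was 96.8 kb away. These peaks had no close neighbour that was retained.

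Others of the 20 lay next to a region at the ceiling in Wbp7-/- cells. The chromosome 11 peak from 68852565 to 68855418 (2854 bp) was 3.2 kb from a Wbp7-/- peak of 2339 bp, and that from 58114646 to 58117006 (2361 bp) was 3.17 kb from one of 1716 bp. On chromosome 5, the peak from 125884777 to 125887656 (2880 bp) was 9.1 kb from a Wbp7-/- peak of 7205 bp. A retained peak thus lay a few kilobases from a missing one at these positions.

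At still others the nearest Wbp7-/- peak was below the ceiling. On chromosome 17, the peak from 23685679 to 23688670 (2992 bp) was 1.31 kb from a Wbp7-/- peak of 888 bp with a score of 98.23. The chromosome 8 peak from 83402257 to 83405176 (2920 bp) was 67.9 kb from one of 614 bp with a score of 178.5. On chromosome 19, the peak from 12084378 to 12088216 (3839 bp) was 3.71 kb from one of 1032 bp with a score of 503.

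Chromosome 13 held the widest unmatched peak, 4056 bp from 21258570 to 21262625, and a second one of 3031 bp from 21250759 to 21253789. Further along, 5 unmatched peaks followed each other without a matched peak between them, from 21291057 to 21371772, with scores of 90.25 to 3100. After LPS all 5 were called again in Wbp7+/- cells, and none in Wbp7-/- cells. Of the 70 ceiling peaks, 9 had another of the 70 within 100 kb. Among all unmatched Wbp7+/- peaks, 1916 stood alone between matched peaks and 556 (16.3%) formed runs of 3 or more, the longest with 6. There were 3 runs of 6. On chromosome 19, that from 11119559 to 11405988 held peaks scoring 56.3 to 123.55, of which 2 had a Wbp7+/- peak and 1 a Wbp7-/- peak after LPS. The other two lay close together on the X chromosome, from 47903098 to 47944631 and from 47953131 to 47976571, with peaks of 328 to 832 bp. All 6 peaks of each X chromosome run had a Wbp7+/- peak after LPS, and 1 in each run had a Wbp7-/- peak after LPS.

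Unmatched peaks were found on every chromosome. The share of Wbp7+/- peaks without a Wbp7-/- peak was lowest on chromosome 7, at 15.0% (13.1 to 17.1), and chromosome 8, at 16.5% (14.2 to 19.1). It was highest on chromosome 12, at 24.5% (21.3 to 28.0). Chromosomes 7 and 8 also had the largest shares of Wbp7+/- peaks at the ceiling, 59.8% and 60.5%, whose part in the low share was not tested. Chromosome 7 is the one that carries Kmt2b in the RefSeq table of GRCm38. Ceiling peaks without a match numbered 11 of 835 on chromosome 11 (1.32%, 0.737 to 2.34) and 8 of 534 on chromosome 1 (1.5%, 0.761 to 2.93). Chromosome 13 had 7 of 390 (1.79%, 0.872 to 3.66), and the share over all chromosomes was 0.722% (0.572 to 0.911). There was none among 247 on chromosome 18 or 283 on the X chromosome, which allows shares of up to 1.21% and 1.06%. Chromosome 16 had 4 of 306 (1.31%, 0.509 to 3.31), an interval that includes the share over all chromosomes. This chromosome holds Pigp, a gene for a subunit of the enzyme of the first step of GPI anchor synthesis. Whether any of the 4 lies at Pigp was not analysed here. Unmatched Wbp7-/- peaks made up 4.76% (3.25 to 6.94) of the list on chromosome 19 and 8.99% (6.97 to 11.5) on chromosome 15, the ends of their range.

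Peaks found in Wbp7-/- cells alone were weaker. The 10 highest-scoring were 1253 to 2080 bp wide with scores of 1266.58 to 2636.32, and all 10 had a Wbp7-/- peak after LPS. Of matched Wbp7-/- peaks scoring 500 to under 3100, 99.9% had one as well. LPS-treated Wbp7+/- cells had a peak at 2 of the 10. These were on chromosome 13 from 23835678 to 23837216, where it measured 360 bp, and on chromosome 2 from 172886658 to 172888517, where it measured 714 bp. The chromosome 13 peak lay 0.035 kb from an untreated Wbp7+/- peak of 2390 bp, so its unmatched state rests on a small gap. By contrast, the peak on chromosome 17 from 48178198 to 48179450 was 115 kb from any Wbp7+/- peak, and that on chromosome 9 from 14409174 to 14410885 was 103 kb from one.

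The LPS lists, which took no part in the matching, were read at the unmatched untreated peaks. The header of the LPS-treated Wbp7+/- list names 24 h and its sample label 4 h, so the time of that library is uncertain. Of the 3410 unmatched Wbp7+/- peaks, 2128 (62.4%) had a peak after LPS in Wbp7+/- cells and none in Wbp7-/- cells, 593 (17.4%) had both, 59 (1.73%) had a Wbp7-/- peak only and 630 (18.5%) had neither. Read without the LPS-treated Wbp7+/- list, 2758 of the 3410 had no Wbp7-/- peak after LPS. Among the 13906 matched Wbp7+/- peaks, 294 (2.11%) were called after LPS in Wbp7+/- cells alone and 13008 (93.5%) in both genotypes.

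The share rose with score. A peak in LPS-treated Wbp7+/- cells alone was seen at 567 of 1324 unmatched peaks scoring under 100 (42.8%), at 1033 of 1443 from 100 to under 500 (71.6%), at 468 of 573 from 500 to under 3100 (81.7%) and at 60 of 70 at the ceiling (85.7%). At matched Wbp7+/- peaks of these classes the share was 10.2%, 9.74%, 3.08% and 0.0623%. The rise at unmatched peaks went with how often Wbp7+/- cells had any peak there after LPS. That was 56.6%, 92.0%, 100% and 100% in the order of these classes. An LPS-treated Wbp7-/- peak was seen at 17.5%, 21.1%, 18.3% and 14.3% of them, so its absence changed little with score. All 643 unmatched peaks scoring 500 or above had a Wbp7+/- peak after LPS. So did 1967 of 1980 matched Wbp7+/- peaks from 500 to under 3100 (99.3%) and all 9625 at the ceiling. In the other direction, 424 of 1012 unmatched Wbp7-/- peaks (41.9%) were called after LPS in Wbp7-/- cells alone and 470 (46.4%) in neither genotype. Among 13587 matched Wbp7-/- peaks these were 367 (2.7%) and 169 (1.24%). Most matched peaks scored higher, and at like scores the gap was smaller. Under 100 the shares were 24.2% and 62.7% of unmatched against 7.98% and 11.2% of matched Wbp7-/- peaks. From 100 to under 500 they were 60.4% and 29.7% against 10.6% and 3.56%. Of the 56 unmatched ones scoring 500 or above, 51 had a Wbp7-/- peak alone and 5 had both. Among 1817 matched Wbp7-/- peaks from 500 to under 3100, 99 had a Wbp7-/- peak alone and 1717 had both.

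**Figure D2:**
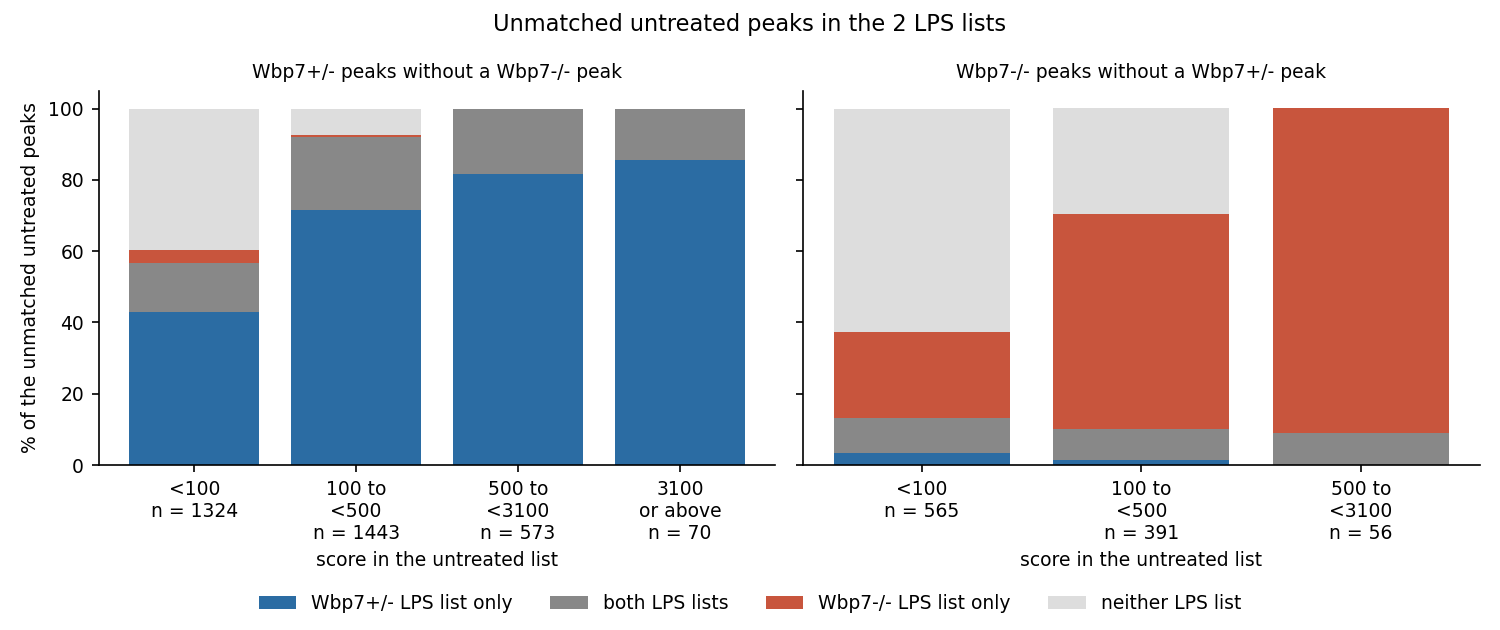
Untreated peaks without a counterpart in the other genotype, by their score (x axis) and by the LPS lists that had a peak there (stacked percent of the class), for Wbp7+/- peaks (left) and Wbp7-/- peaks (right). At the ceiling 60 of 70 Wbp7+/- peaks had a peak in the Wbp7+/- LPS list alone, while most Wbp7-/- peaks scoring under 100 had a peak in neither.

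At 10 of the 70 ceiling peaks, a Wbp7-/- peak was called after LPS although none was called without it. These calls were weak. On chromosome 10, the peak from 94877711 to 94880478 measured 2768 bp untreated and 4089 bp with LPS in Wbp7+/- cells, and the LPS-treated Wbp7-/- peak measured 2288 bp with a score of 274.47. On chromosome 16, the peak from 58407890 to 58409819 had a Wbp7-/- peak of 1223 bp with a score of 166.94. At the other 8 the Wbp7-/- score was 54.96 to 115.1. Both Wbp7+/- lists had all 10 at the ceiling.

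Matched peaks were mostly simple pairs. In 12332 cases a Wbp7+/- peak and a Wbp7-/- peak overlapped each other and no further peak. A Wbp7-/- peak spanned 2 or more Wbp7+/- peaks in 646 cases, 482 of them at the ceiling. A Wbp7+/- peak spanned 2 or more Wbp7-/- peaks in 342 cases, 241 of them at the ceiling. Joining was therefore counted more often in Wbp7-/- cells. The most parts lay on chromosome 15, where the Wbp7-/- peak from 76003253 to 76014721 (11469 bp) covered 6 Wbp7+/- peaks of 574 to 3874 bp. On chromosome 11, the Wbp7+/- peak from 23975750 to 23982348 (6599 bp) covered 4 Wbp7-/- peaks of 610 to 1962 bp.

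The pairs differed little in width. The median ratio of Wbp7-/- to Wbp7+/- width was 1.03 (quartiles 0.952 and 1.13), with 7679 pairs wider and 4631 narrower in Wbp7-/- cells. A ratio of 0.67 or under was seen in 531 pairs (4.31%), and one of 1.5 or more in 525 (4.26%). Between treatments of 1 genotype, the median ratio of LPS to untreated width was 0.982 in Wbp7+/- and 0.976 in Wbp7-/- cells. There 6.46% and 5.89% of pairs passed either limit, against 8.56% between the genotypes. The direction depended on which list was required to be strong. With the Wbp7+/- peak at the ceiling, 192 pairs were narrower and 98 wider in Wbp7-/- cells by these limits, and with the Wbp7-/- peak at the ceiling 33 and 129 were. With both peaks at the ceiling, the order differed, with 1.59% past either limit between the genotypes, and 2.63% in Wbp7+/- and 1.88% in Wbp7-/- cells between treatments.

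**Figure D3:**
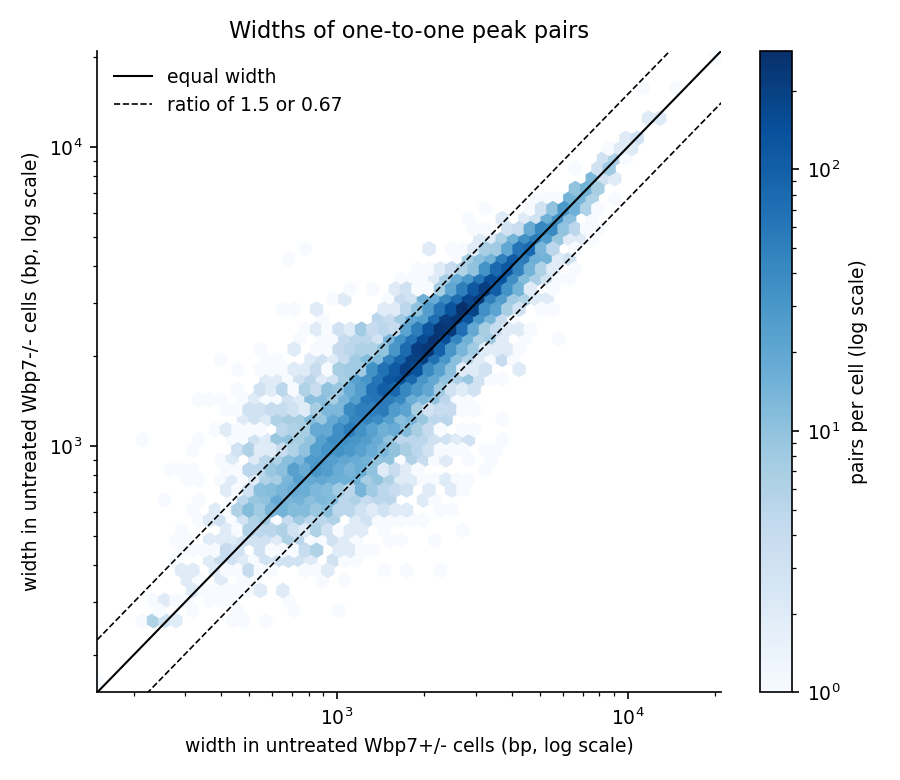
Widths of the 12332 one-to-one pairs in untreated Wbp7+/- (x axis) and Wbp7-/- cells (y axis), in bp on log scales, shaded by the number of pairs per cell. The solid line marks equal width and the dashed lines ratios of 1.5 and 0.67, beyond which lie 525 and 531 pairs.

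Among the 8169 pairs with both peaks at the ceiling, the median width was 2495 bp in Wbp7+/- cells against 2645 bp in Wbp7-/- cells, and 68.1% were wider in Wbp7-/- cells. The median outward move of an edge was 42 bp on the left (quartiles -38 and 149) and 43 bp on the right (-39 and 145). Both edges lay further out in 3550 pairs (43.5%), and both lay inward in 1152 (14.1%). The width ratio varied with size. Grouped by the mean of both widths, the median ratio was 1.08 from 1000 to under 1500 bp, 1.05 from 2000 to under 3000 bp and 0.999 at 5000 bp or more. Broad domains, of which 420 pairs had a mean of 5000 bp or more, were thus of nearly equal width, with 213 narrower and 206 wider in Wbp7-/- cells. The widest peak of both lists was on chromosome 15 from 76018942 to 76039070, with 20129 bp in Wbp7+/- cells against 19865 bp in Wbp7-/- cells. After LPS it measured 19950 and 21754 bp. On chromosome 3, the peak from 89188500 to 89201013 held 12514 and 12572 bp untreated and 12542 and 12461 bp after LPS, so that its 4 widths spanned 12461 to 12572 bp.

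Large changes in width were rare at the ceiling and mostly came from 1 edge. The ratio was 0.67 or under in 33 of the 8169 pairs and 1.5 or more in 97. One edge made up 80% or more of the net change in 23 of the 33 and in 66 of the 97. Pairs whose edges moved in opposite directions always pass this limit. The share over the other ceiling pairs was not analysed here, so a single moving edge is not shown to be particular to large changes. On chromosome 3, the Wbp7+/- peak from 30498348 to 30502724 measured 4377 bp and the Wbp7-/- peak 2303 bp, a ratio of 0.526, with the left edge 2248 bp further in and the right edge 174 bp further out. After LPS the widths were 4206 and 2025 bp, a ratio of 0.481. There too the left edge lay further in, by 2230 bp.

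The peak on chromosome 15 from 3220067 to 3226217 measured 6151 bp in Wbp7+/- cells against 3565 bp in Wbp7-/- cells, with 2373 bp missing at its right edge. After LPS the widths were 6021 and 3211 bp. On chromosome 2, the peak from 11421486 to 11425312 measured 3827 and 2074 bp untreated and 7082 and 3666 bp after LPS, so that it was wider after LPS in each genotype and narrower without Wbp7 in each treatment. The chromosome 15 peak from 78410355 to 78412710 did not repeat. It measured 2356 and 1308 bp untreated, and 1394 and 1838 bp after LPS.

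In the other direction, the chromosome 9 peak from 44142534 to 44144580 measured 2047 bp in Wbp7+/- cells against 4561 bp in Wbp7-/- cells, a ratio of 2.23, and 1874 and 3779 bp after LPS. On chromosome 12, the peak from 25392263 to 25394338 measured 2076 and 4573 bp, and 2106 and 3856 bp after LPS. These were wider in Wbp7-/- cells on both sides. The largest ratio among pairs at the ceiling, 2.28, was on chromosome 14 from 66424431 to 66425477, with 1047 and 2382 bp untreated and 1584 and 2200 bp after LPS, a ratio of 1.39.

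The LPS libraries gave a separate reading of the width ratios. Of the 33 narrower ceiling pairs, 22 had a one-to-one counterpart in both LPS lists. Their median LPS ratio was 0.722, against 0.609 untreated, and 19 of the 22 were again narrower in Wbp7-/- cells. Of the 97 wider pairs, 82 had such a counterpart, with a median LPS ratio of 1.4 against 1.57 untreated, and 74 were again wider. Of 7496 ceiling pairs readable in both treatments, 5225 were wider in Wbp7-/- cells after LPS. Across these pairs the log2 ratios of the 2 treatments had a Pearson r of 0.483 and a Spearman rho of 0.435. The points are regions of the same 4 libraries and not replicates, and the r is given as a description.

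**Figure D4:**
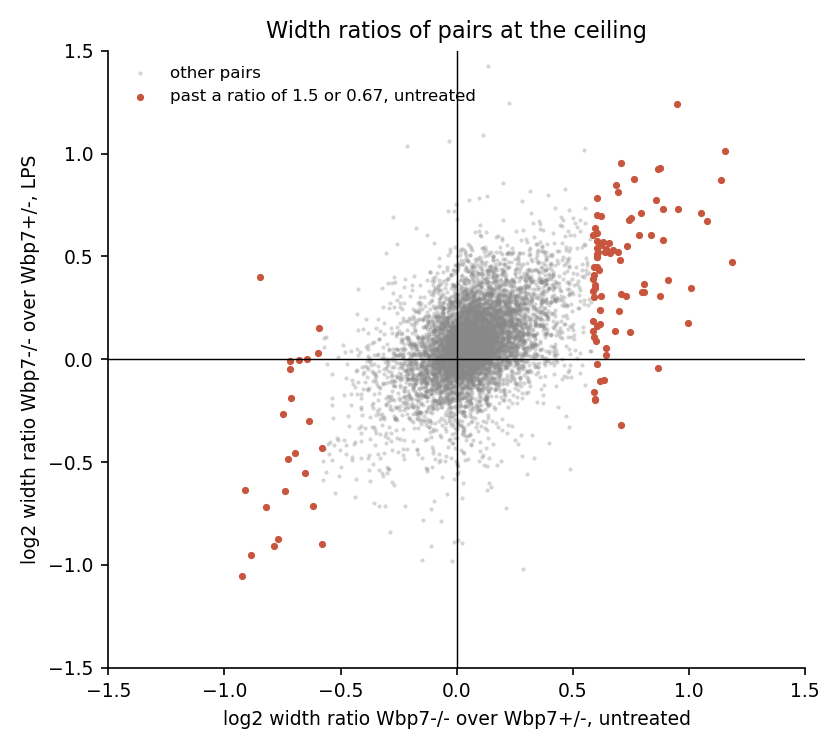
Log2 ratio of Wbp7-/- to Wbp7+/- peak width in untreated (x axis) and LPS-treated cells (y axis) for 7496 pairs at the ceiling, each point 1 region. Pairs past a ratio of 1.5 or 0.67 in untreated cells are red, and 74 of 82 on the right and 19 of 22 on the left lie on the same side of 0 after LPS.

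Score classes changed more in one direction. Of the 12332 pairs, 9907 (80.3%) were in the same class in both genotypes, 1785 (14.5%) in a lower class in Wbp7-/- cells and 640 (5.19%) in a higher one. A fall of 2 or more classes was seen in 300 pairs and a rise of 2 or more in 51. Of 8844 pairs at the ceiling in Wbp7+/- cells, 675 (7.63%) were below it in Wbp7-/- cells and 147 (1.66%) scored under 500 there. Of 8337 pairs at the ceiling in Wbp7-/- cells, 168 (2.02%) were below it in Wbp7+/- cells and 9 (0.108%) scored under 500.

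The same counts were made between treatments of 1 genotype. None of 8839 Wbp7+/- pairs at the ceiling untreated scored under 500 after LPS, which allows a share of up to 0.0339%. Of pairs at the ceiling after LPS, 24 of 8654 in Wbp7+/- and 30 of 8285 in Wbp7-/- cells scored under 500 untreated, shares of 0.277% and 0.362%. These lie below the 1.66% from Wbp7+/- to Wbp7-/- cells and above the 0.108% in the other direction. The part of library depth in these counts was not tested.

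**Figure D5:**
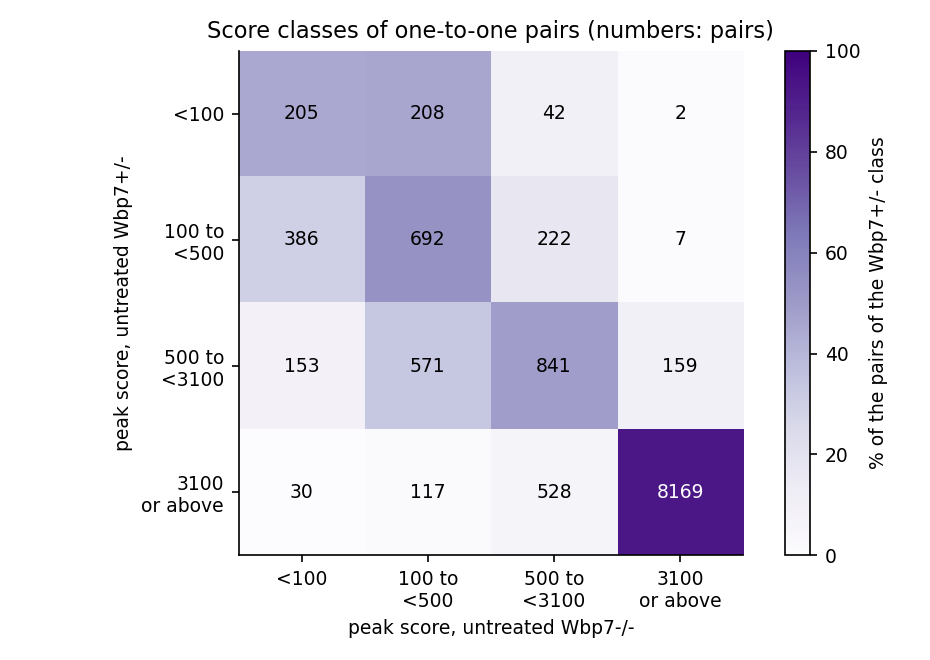
One-to-one pairs by score class in untreated Wbp7+/- (rows) and Wbp7-/- cells (columns), with the number of pairs printed and the shade giving the percent of each Wbp7+/- class. Below the diagonal, where the Wbp7-/- class is lower, lie 1785 pairs, and above it 640.

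The 147 regions at the ceiling in Wbp7+/- and under 500 in Wbp7-/- cells had a called peak in both genotypes. Their median width was 1821 bp in Wbp7+/- cells against 1048 bp in Wbp7-/- cells, with a median ratio of 0.603. Matched Wbp7-/- peaks scoring 100 to under 500 had a median of 1034 bp, so the narrow Wbp7-/- width goes with the choice by score. Whether the mark was reduced or the library differed cannot be told apart. After LPS, 127 of the 147 were at the ceiling in Wbp7+/- cells and 122 scored under 500 or had no peak in Wbp7-/- cells, 103 of them both. In LPS-treated Wbp7-/- cells 25 of the 147 scored 500 or above. In 0 of the 147 was the LPS-treated Wbp7-/- score the higher one. The overlap rule counts these regions as matched, so they stand outside the 70 ceiling peaks called unmatched.

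The widest of those scoring under 100 in Wbp7-/- cells was on chromosome 14 from 51682374 to 51685963. It measured 3590 bp untreated and 3665 bp with LPS in Wbp7+/- cells, and the Wbp7-/- peaks measured 932 bp (score 61.01) and 949 bp (77.51). On chromosome 11, the peak from 114711798 to 114714624 measured 2827 and 3189 bp, against 866 bp (61.98) and 867 bp (60.41) without Wbp7. At both positions a small peak was called in each Wbp7-/- list.

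A pair of others had a Wbp7-/- peak at the ceiling with LPS. On chromosome 15, the peak from 31294623 to 31298035 measured 3413 and 4148 bp in Wbp7+/- cells, while Wbp7-/- cells had 870 bp (79.07) untreated and 3277 bp at the ceiling after LPS. On chromosome 14, the peak from 28148694 to 28151230 measured 2537 and 2954 bp, while Wbp7-/- cells had 747 bp (61.99) untreated and 2541 bp at the ceiling after LPS. The widths of the genotypes were thus far apart in untreated cells and closer after LPS. Of the 147 regions, 4 were at the ceiling in LPS-treated Wbp7-/- cells.

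The 9 regions at the ceiling in Wbp7-/- and under 500 in Wbp7+/- cells had median widths of 2289 and 1064 bp. All 9 kept the order after LPS. The LPS-treated Wbp7-/- scores were 1454.72 or above, while LPS-treated Wbp7+/- cells had no peak at 4 of the 9 and a score of at most 364.97 at the other 5. The weakest in Wbp7+/- cells was on chromosome 4, with a peak from 138418853 to 138419573 of 721 bp (63.7) against 2977 bp in Wbp7-/- cells, and after LPS none against 2820 bp. The chromosome 7 peak from 145362132 to 145362882 measured 751 bp (73.06) against 1210 bp, and after LPS none against 1086 bp. Chromosome 3 held a pair of neighbours. The peak from 96041068 to 96042494 measured 1427 bp against 2145 bp, and that from 96051171 to 96052210 measured 1040 bp against 2289 bp. The 147, the 9 and the examples named from them were picked out after their values were seen, by the score classes of the untreated lists.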

How the data were processed

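H3K4me3 ChIP-seq peak lists of 4 mouse libraries were used, 1 per genotype and treatment, grouped by sample title. Reads were aligned with Bowtie to mm9, per the submitters' processing notes, and peaks were called by MACS in each library, per the file headers. Versions, thresholds and read numbers: not given in the sources used here. The deposited score of each peak was kept as the authors gave it. Other columns hold chromosome, start and end.

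The track line was skipped. Overlaps (1 bp or more) were computed with bedtools 2.31.1, and shares with 95% Wilson intervals (scipy 1.17.1). A 0 was given the limit that 3 counts allow. These cover counting error only. Functions were tested on simulated data. Python 3.11.15, pandas 2.3.3, numpy 2.4.6 and matplotlib 3.10.9 were used.

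The members, classes and lists were chosen with earlier results of these data known. Named regions were the 20 widest unmatched Wbp7+/- peaks at the ceiling, the 10 highest-scoring unmatched Wbp7-/- peaks, the 8 lowest and 8 highest width ratios at the ceiling and the 5 widest peaks per list. The text prints those that show each pattern. Runs of peaks, falls in score class and peaks called again after LPS were picked after their values were seen. Planned promoter, GPI anchor, LPS receptor and cell marker lists were not run: the gene table is of GRCm38 and the peaks are of mm9, so no gene and no sequence is given for a region.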

Additional observations from a re-analysis of the deposited data

Results flagged for a closer look

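At 59 unmatched untreated Wbp7+/- peaks the genotypes changed places with treatment, since LPS-treated Wbp7-/- cells had a peak and LPS-treated Wbp7+/- cells had none. The reverse was seen at 25 unmatched untreated Wbp7-/- peaks. These were 1.73% and 2.47% of the unmatched peaks. Over matched peaks of all scores, the same LPS patterns were seen at 414 of 13906 in Wbp7+/- (2.98%) and 282 of 13587 in Wbp7-/- cells (2.08%). Among peaks scoring under 100, they were seen at 3.7% of unmatched against 31.7% of matched Wbp7+/- peaks. For Wbp7-/- peaks under 100 these shares were 3.36% and 23.6%. The counts are therefore near the share over matched peaks of all scores, and far below it among weak peaks. The difference between the genotypes was not tested, as each group had 1 library. The 59 were narrow and weak, with a median width of 615 bp, 49 scores under 100 and a highest score of 228.43. The 25 had a median width of 742 bp, 19 scores under 100 and a highest score of 242.97. A single library per group leaves no outlier check.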

How the results depend on the processing

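The alternatives gave 28 values. Of these, 13 were within a factor of 1.5 of the count in the report or within the interval of its median, and 15 were outside. A count has no direction that could reverse. The order of 2 counts set against each other changed with some settings, as the numbers below show. Counting only peaks with 50% or more of their length covered as matched, accepting peaks within 1 kb, and dropping scores under 100 moved none of the 3 counts of unmatched peaks past that factor. With scores under 500 dropped, unmatched peaks numbered 1554 in Wbp7+/- and 361 in Wbp7-/- cells. Of the former, 1207 were called again with LPS in Wbp7+/- cells alone. These counts include peaks whose counterpart was removed by the cut. With lists of 14599 peaks each, these numbers were 1694, 1756 and 1237. Equal lengths with mostly one-to-one matches make the first pair nearly equal by construction, so they do not test the excess of unmatched Wbp7+/- peaks. With ceiling peaks alone they were 70, 0 and 60. Without the LPS-treated Wbp7+/- list, an alternative chosen after seeing the data, gave 2758.

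Among pairs with both peaks at the ceiling, 33 were narrower and 97 wider in Wbp7-/- cells, with a median ratio of 1.04. Among pairs scoring 500 or above these numbers were 109, 173 and 1.038. Over all pairs, 531 and 525 were. Requiring a high score in both lists, or in Wbp7-/- cells, leaves more wider pairs, while requiring it in Wbp7+/- cells alone leaves 192 narrower and 98 wider at the ceiling. Joined regions gave 552, 547 and 1.035. No paired analysis was possible because each group had 1 library. Read depth is unknown and limits every count of absent peaks.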
